A study of Mus musculus with 20 samples.

Results

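The transcriptional response of Th1 cultures to SGC0946, an inhibitor of the histone methyltransferase DOT1L, was measured against SGC0649, its control compound. Total RNA of mouse CD4+ T cells from spleen and peripheral lymph nodes was sequenced in 20 libraries, which form 10 groups of 2. The comparison described here uses 4 of these 20 libraries, 2 with SGC0946 and 2 with SGC0649, taken by their compound and culture condition. The cells of all 4 came from Cre+ mice with intact Dot1l (WT), so the Cre transgene was present in treated and control cultures alike. For 4 days they were cultured on plates coated with antibodies to CD3 and CD28, both at 1 µg/ml. The medium held IL-2 and IL-12, both at 10 ng/ml, and anti-IL-4 at 10 µg/ml, and viable CD4+ cells were then sorted. Each compound was given at 1 µM. Further libraries served as references: WT Th1 cultures without compound, KO Th1 cultures (CD4Cre+DOT1L FL/FL, in which a CD4-driven Cre acts on a floxed Dot1l), and WT Th2 cultures with either compound, grown with IL-4 (10 ng/ml) and anti-IFN-γ (10 µg/ml) in place of IL-12 and anti-IL-4. Separate mice or cultures are not stated for the 2 libraries of a group. The p-values rest on the spread between libraries of a group, shared over all 10 groups and not taken from the 4 compared libraries alone. That spread may be technical.

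DOT1L is the enzyme that methylates lysine 79 of histone H3 in the body of transcribed genes, and it works within complexes that also contain transcription elongation factors. Th1 cells are helper T cells that develop under IL-12, depend on the transcription factor T-bet (Tbx21) and secrete IFN-γ. Th17 cells are a separate helper subset that secretes IL-17A, IL-17F and IL-22.

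The 4 libraries held 9973998 to 11378959 protein-coding counts. The defining Th1 genes were present: Tbx21 stood at 271 to 314 CPM (counts scaled to a common library size by edgeR) and Ifng at 523 to 739 CPM in all 4, against 19.7 to 25.5 and 15.1 to 26.6 CPM in the 4 Th2 libraries with compound. Over genes, the log2 difference between the 2 libraries of a group had an SD of 0.268 for SGC0649 and 0.245 for SGC0946. Dot1l RNA itself was at 154 and 146 CPM with SGC0649 and at 140 and 154 CPM with SGC0946, a log2 difference of -0.03 ± 0.11 (standard error, SE; adjusted p = 0.962). The groups overlapped, and since the inhibitor targets the enzyme and not its transcript, this value does not check the treatment.

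Against SGC0649, SGC0946 raised 53 genes (0.405% of those tested) and lowered 8 (0.0612%) in Th1 cultures (edgeR quasi-likelihood test on all 20 libraries, Benjamini-Hochberg adjusted p under 0.05). Together the 61 are 0.467% of the 13072 genes tested. The 2 groups did not overlap for any of the 61, nor for 46.6% of all tested genes, so this adds nothing to the calls. The median log2 fold change over all tested genes was -0.00. A change of at least 2-fold was seen for 30 of the higher genes and 3 of the lower ones. At an unadjusted p under 0.05 there were 833 higher and 460 lower genes. All 61 kept their direction under the 12 other settings tried. These settings draw on the same libraries, whose groups did not overlap, so a kept direction is no support for the calls. The number of calls changed with the setting. With the replicate number as a block, 192 genes (1.47%) were called, 161 higher (1.23%) and 31 lower (0.237%), and these included all 61. When 1 of the 4 libraries was left out, between 2 and 7 genes were called, and only B4galnt4 and Tnfrsf8 were called each time.

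**Figure D1:**
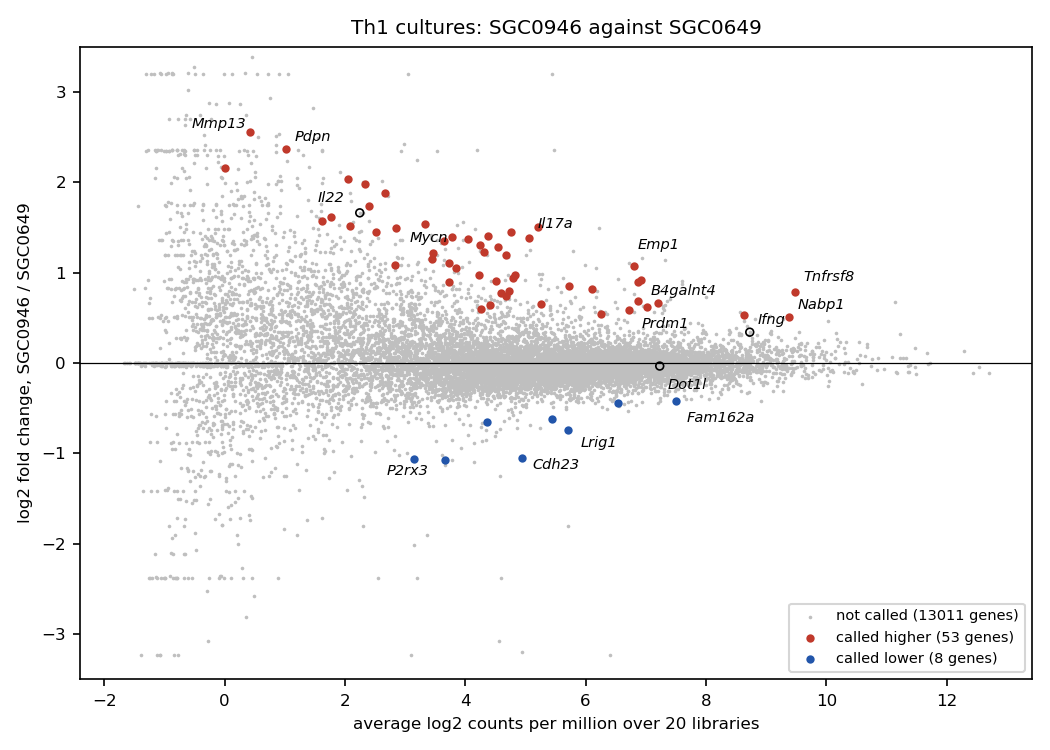
Each point is 1 gene, with its average log2 CPM over the 20 libraries on the x axis and its log2 fold change of SGC0946 over SGC0649 in Th1 cultures on the y axis. Red and blue points are the 53 higher and 8 lower genes that were called, open circles mark 3 uncalled genes that are named, and 49 genes lie outside the y axis. Called genes lie mostly above 0, while Ifng and Dot1l lie within the grey cloud.

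The smallest adjusted p belonged to B4galnt4, a glycosyltransferase gene on chromosome 7, and to Tnfrsf8 on chromosome 4, which encodes the TNF receptor family member CD30. B4galnt4 stood at 43.4 and 40.2 CPM with SGC0649 and at 80.5 and 75.0 CPM with SGC0946 (log2 fold change 0.90 ± 0.09 SE, adjusted p = 0.000328). Tnfrsf8 stood at 180 and 154 CPM with SGC0649 and at 291 and 288 CPM with SGC0946 (0.79 ± 0.09, adjusted p = 0.00102). For neither gene did the groups overlap, and cultures without compound, at 40.5 and 40.1 CPM for B4galnt4 and 148 and 126 CPM for Tnfrsf8, lay at or below the SGC0649 level. B4galnt4 was the nearest called neighbour of Ifitm3, an interferon-induced membrane gene, across a gap of 50.5 kb. Ifitm3 stood at 49.5 and 45.1 CPM with SGC0649 and at 90.4 and 89.2 CPM with SGC0946 (0.92 ± 0.14, adjusted p = 0.00933).

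To show the regulatory sequence in front of called genes, the 250 bases before the RefSeq start (GRCm38.p6) were read for 4 of them, chosen after their values were seen. Tnfrsf8 had one of the smallest p, Ifitm3 lies beside B4galnt4, and Il17a and Mmp13 are the called genes with the opposite call in Th2 cultures. All 4 hold the letters marked below, which most of the higher genes do not. Capitals mark the letters TGANTCA, a loose form of the site bound by AP-1 factors (TGACTCA or TGAGTCA) that allows any middle base. The pattern reads the same on both strands. The marked stretches of Mmp13 and Tnfrsf8 have the AP-1 form, while those of Il17a (TGAATCA) and Ifitm3 (TGATTCA) do not. The windows are chr1:20730655-20730904 (Il17a, plus strand), chr9:7272264-7272513 (Mmp13, plus), chr7:141010745-141010994 (Ifitm3, minus) and chr4:145315165-145315414 (Tnfrsf8, minus), each written 5′ to 3′ along its gene.
Il17a: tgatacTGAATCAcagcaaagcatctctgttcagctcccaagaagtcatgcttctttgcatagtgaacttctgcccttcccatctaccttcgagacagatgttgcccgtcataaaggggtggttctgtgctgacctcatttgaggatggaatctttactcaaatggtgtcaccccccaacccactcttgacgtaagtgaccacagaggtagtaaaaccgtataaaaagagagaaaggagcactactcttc
Mmp13: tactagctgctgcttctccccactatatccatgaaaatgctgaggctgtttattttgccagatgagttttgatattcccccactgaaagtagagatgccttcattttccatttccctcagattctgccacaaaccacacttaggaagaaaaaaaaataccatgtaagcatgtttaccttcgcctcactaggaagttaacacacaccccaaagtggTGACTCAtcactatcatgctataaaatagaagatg
Ifitm3: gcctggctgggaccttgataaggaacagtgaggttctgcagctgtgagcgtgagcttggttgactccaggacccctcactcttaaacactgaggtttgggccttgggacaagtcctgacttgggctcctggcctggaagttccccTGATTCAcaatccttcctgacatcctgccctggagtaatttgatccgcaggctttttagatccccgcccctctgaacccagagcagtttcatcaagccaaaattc
Tnfrsf8: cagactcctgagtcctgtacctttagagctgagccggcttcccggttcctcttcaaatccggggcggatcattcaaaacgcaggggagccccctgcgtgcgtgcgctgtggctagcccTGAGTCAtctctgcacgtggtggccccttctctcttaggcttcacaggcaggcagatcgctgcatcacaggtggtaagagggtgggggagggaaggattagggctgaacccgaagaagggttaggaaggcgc
The marked letters begin 244, 35, 105 and 132 bases before the start in this order. Windows of this length were found for 45 of the 53 higher genes by symbol, and 8 of them (17.8%) hold TGANTCA: Emp1, Ifitm3, Il17a, Lsr, Mmp13, Prdm1, S100a11 and Tnfrsf8. The same letters occur in 4.36% of the windows of 10017 tested genes and in 6.87% of all 27018 windows of the table. None of the 6 matched lower genes holds it. Among other letters searched on both strands, TATAAA was in 6.67% of windows of higher genes and 6.46% of those of tested genes, the interferon response element in 4.44% and 2.76%, and TTCNNNGAA (a STAT site) in 2.22% and 6.13%. A match is a description of these letters, not a measured site.

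Among cytokine genes, Il17a was the one that passed the test. Il17a (chromosome 1, 20730905 to 20734496 in GRCm38) encodes IL-17A, the signature cytokine of Th17 cells. It stood at 40.6 and 35.5 CPM with SGC0649, at 95.8 and 103 CPM with SGC0946, and at 31.1 and 19.6 CPM without compound. The SGC0946 libraries were the highest of the Th1 libraries, and the groups did not overlap. The log2 fold change was 1.38 ± 0.27 (adjusted p = 0.0423), and the call was lost without a filter on low counts (adjusted p = 0.0938), in the table of all named genes (0.0514), in a fit of the 8 Th1 libraries alone (0.0901) and without any 1 of the 4 libraries (0.183 to 0.426). In the KO Th1 cultures Il17a was at 7.51 and 2.82 CPM and fell against WT by 2.28 on the log2 scale (adjusted p = 9.31e-05). In Th2 cultures it fell with SGC0946, from 84.8 and 59.4 CPM to 37.0 and 29.2 CPM (log2 fold change -1.12, adjusted p = 0.0238). The Th1 and Th2 responses to the inhibitor differed by 2.51 ± 0.39 on the log2 scale (adjusted p = 0.0134), and the KO and inhibitor effects in Th1 differed by -3.67 (adjusted p = 4.26e-05).

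Pdpn (chromosome 4), which encodes the membrane glycoprotein podoplanin, is expressed by Th17 cells and by stromal cells. It gave 8 and 3 reads with SGC0649 and 26 and 33 with SGC0946, or 0.810 and 0.278 against 2.34 and 3.30 CPM. The difference was called (log2 fold change 2.37 ± 0.46, adjusted p = 0.0296). With 1 of the 4 libraries left out, the log2 fold change ranged from 1.78 to 3.29 and the call was lost each time (adjusted p = 0.0778 to 0.433). KO Th1 cultures held more Pdpn than either, at 11.1 and 10.1 CPM, and the KO raised it by 3.65 on the log2 scale (adjusted p = 1.19e-06).

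Of 16 measured genes of the Th17 program list, these 2 were called higher and none lower, while 9 of the 16 were higher at an unadjusted p under 0.05. Over all tested genes 0.405% were called higher, and 6.37% were higher and 3.52% lower at that unadjusted p. The list median was 0.43 on the log2 scale, against -0.00 over all genes. Members of this and the other gene lists were chosen with earlier results of these data known, and Il17a and Pdpn were preset. List counts and medians are therefore descriptions and no test. With the replicate block 5 of 16 were called higher (1.23% of all tested genes), Il17a, Pdpn, Il22 and Il21 among them. Il22, a cytokine that acts on epithelia, stood at 2.33 and 3.89 CPM with SGC0649 and at 11.4 and 8.41 CPM with SGC0946 (1.66 ± 0.38, adjusted p = 0.0654, and 0.00886 with the block). Il21, a cytokine of follicular helper and Th17 cells, stood at 137 and 147 CPM against 241 and 260 CPM (0.82 ± 0.18, adjusted p = 0.0654, and 0.0399 with the block). In both the SGC0946 libraries lay above both SGC0649 libraries and above those without compound. Il17f, at 2.63 and 1.85 against 7.10 and 6.21 CPM, passed neither fit (adjusted p = 0.246 and 0.191). Not every Th17 gene lay higher: Ccr6, Csf2 and Il6ra had log2 fold changes of -0.49, -0.30 and -0.18, with adjusted p of 0.847, 0.827 and 0.719.

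**Figure D2:**
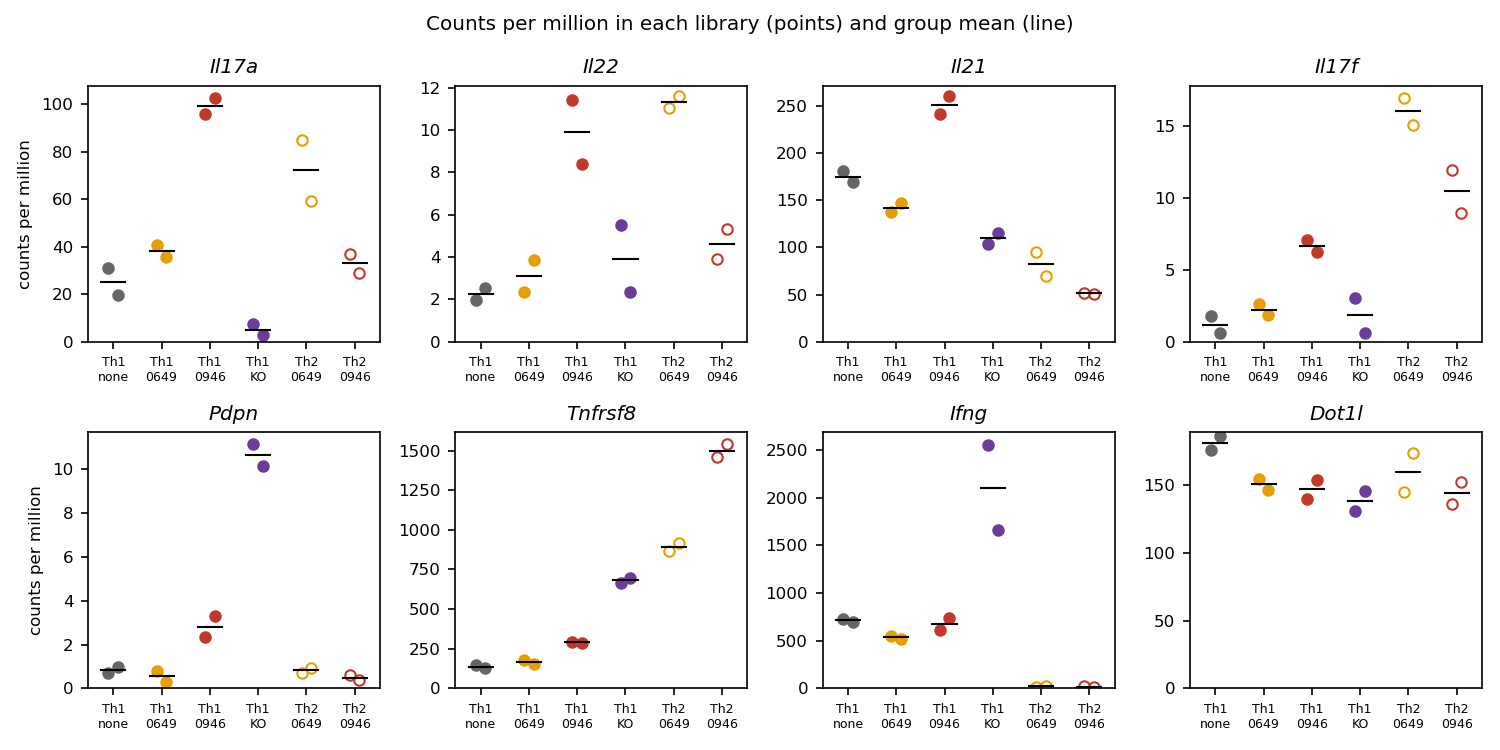
CPM of 8 genes in each library, on linear axes from 0; points are libraries and lines are means of 2. The x axis gives the culture (Th1 or Th2) and none, SGC0649 (0649), SGC0946 (0946) or KO. Il17a, Il22, Il21 and Il17f are highest in Th1 cultures with SGC0946 among the Th1 groups, while Pdpn, Tnfrsf8 and Ifng are highest there in the KO.

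The genes that define Th1 and Th2 cells were not called. Ifng was at 547 and 523 CPM with SGC0649 and at 616 and 739 CPM with SGC0946 (0.34 ± 0.25, 95% interval -0.19 to 0.87, adjusted p = 0.732). The groups did not overlap, but the cultures without compound, at 727 and 700 CPM, reached the SGC0946 level. In the KO Ifng was at 2559 and 1658 CPM. Tbx21 was at 282 and 271 against 314 and 300 CPM (0.15, interval -0.12 to 0.42, adjusted p = 0.776). The Th2 cytokine genes Il4 and Il13 and the Th2 regulator Gata3 had log2 fold changes of 0.23, 0.11 and -0.00, with intervals of -0.59 to 1.04, -0.45 to 0.67 and -0.32 to 0.31 and adjusted p of 0.905, 0.939 and 1.00. These intervals include 0 and, for Il4, changes of 2-fold.

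Of 27 genes of the Th1 program, none was called, and 7 were higher and 1 was lower at an unadjusted p under 0.05, with a median of 0.14. Over all tested genes 6.37% were higher and 3.52% lower at that unadjusted p. With the replicate block 4 were called higher (1.23% of all tested genes): the chemokines Ccl3 and Ccl5, the regulator Id2 and Tnf. Ccl5 stood at 147 and 135 CPM with SGC0649 and at 313 and 297 CPM with SGC0946 (1.11 ± 0.29, adjusted p = 0.129, and 0.0311 with the block). Ccl3 stood at 113 and 119 against 178 and 216 CPM (0.77 ± 0.17, adjusted p = 0.0598, and 0.00572 with the block). Eomes, a T-box factor related to T-bet, was the Th1 gene furthest below 0, at 16.9 and 21.5 against 9.79 and 11.6 CPM (-0.85 ± 0.26, adjusted p = 0.195). The Th2 program had no called gene among 24 and a median of 0.15. Under the block Maf and Epas1, regulators of that list, were called higher, against the same 1.23% of all tested genes.

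By their symbols, 23 collagen genes and 11 matrix metalloproteinase genes were tested, families looked up after the called genes were seen. Of the collagens 4 were called higher and none lower, with a family median of 0.18 on the log2 scale. Of the metalloproteinases 2 were called higher and none lower, with a median of 0.67. Over all tested genes 0.405% were called higher and 0.0612% lower. Families found through their called genes exceed such shares by the way they were chosen, so these counts are no test. Mmp9, a secreted gelatinase, stood at 24.3 and 21.1 CPM with SGC0649 and at 67.4 and 56.8 CPM with SGC0946 (1.45 ± 0.29, adjusted p = 0.0411). Its call was lost with DESeq2 (adjusted p = 0.0672), without a filter on low counts (0.0911), in the table of all named genes (0.0504) and without any 1 of the 4 libraries (0.126 to 0.426). Col5a3 stood at 2.13 and 1.02 against 5.75 and 5.80 CPM (1.89 ± 0.32, adjusted p = 0.0136), and Col16a1 at 3.04 and 1.48 against 7.37 and 6.41 CPM (1.62 ± 0.34, adjusted p = 0.0423). Col18a1 (log2 fold change 1.19) and Col13a1 (2.16) were the other collagens. Col13a1 lost its call with DESeq2 (adjusted p = 0.135). With SGC0946 against no compound its log2 fold change was 1.14 (adjusted p = 0.143), and with SGC0649 against no compound it was -1.01 (adjusted p = 1.00). Mmp13, a collagenase, gave 10 and 8 reads against 65 and 45 (2.55 ± 0.43, adjusted p = 0.0136). Apart from Mmp9 and Col18a1, these genes were at a few CPM in both groups.

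Other higher genes are given singly. Emp2, a tetraspan membrane protein gene, stood at 0.709 and 1.02 CPM with SGC0649 and at 3.14 and 4.10 CPM with SGC0946 (2.04 ± 0.35, adjusted p = 0.0136). Its relative Emp1 was expressed far more, at 97.8 and 86.4 against 199 and 189 CPM (log2 fold change 1.07, adjusted p = 0.0160). Marcks, an actin-binding substrate of protein kinase C, stood at 10.5 and 9.34 against 29.6 and 26.8 CPM (1.51 ± 0.27, adjusted p = 0.0217). Enah, an actin regulator, stood at 6.48 and 7.59 against 16 and 18.3 CPM (1.28 ± 0.18, adjusted p = 0.00638). Clec2l, a lectin-like gene, stood at 1.11 and 1.76 against 5.66 and 5.80 CPM (1.98 ± 0.29, adjusted p = 0.00796). Each SGC0946 library lay above both SGC0649 libraries for these genes. Others among the higher genes were the septin gene Sept5 (1.51), the zinc transporter gene Slc30a2 (1.74) and Uchl1 (1.49), a deubiquitinase, with adjusted p of 0.0161, 0.0385 and 0.0228.

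Mycn, a member of the MYC family, stood at 3.34 and 3.33 CPM with SGC0649 and at 8.08 and 9.21 CPM with SGC0946 (1.37 ± 0.18, adjusted p = 0.00483). Rbm47, an RNA-binding protein gene, stood at 1.62 and 3.15 against 7.19 and 6.81 CPM (1.54 ± 0.26, adjusted p = 0.0136). Prdm1, which encodes the repressor BLIMP-1, stood at 92.0 and 89.3 against 137 and 136 CPM (0.59 ± 0.12, adjusted p = 0.0277). Prdm1 was the only called gene of 18 AP-1, BATF and IRF factors, whose median was 0.08. Under the block Maf and Batf3 joined it. Of all tested genes 0.405% were called higher, and 1.23% under the block.

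The 8 lower genes are P2rx3, Samd3, Cdh23, Lrig1, Gfod1, Ephx1, Stk39 and Fam162a. P2rx3, an ATP-gated ion channel gene, stood at 23.4 and 24.8 CPM with SGC0649 and at 10.8 and 12.1 CPM with SGC0946 (-1.08 ± 0.22, adjusted p = 0.0350). Samd3 stood at 16 and 15.9 against 7.99 and 7.31 CPM (-1.06 ± 0.18, adjusted p = 0.0136), and Cdh23, a cadherin gene, at 129 and 92.8 against 59.5 and 47.2 CPM (-1.05 ± 0.20, adjusted p = 0.0308). Lrig1, a negative regulator of growth factor receptors, stood at 64.1 and 65.7 against 39.5 and 37.9 CPM (-0.74 ± 0.13, adjusted p = 0.0136). Ephx1, the microsomal epoxide hydrolase gene, stood at 47.1 and 58.0 against 32.2 and 36.5 CPM (-0.62 ± 0.11, adjusted p = 0.0160). Gfod1 (-0.65), the kinase gene Stk39 (-0.44) and Fam162a (-0.42), a nuclear gene for a mitochondrial protein, had adjusted p of 0.0184, 0.0277 and 0.0160.

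The called genes were next set beside the KO Th1 cultures, in a comparison that shares no library with the main one. Dot1l RNA was at 176 and 186 CPM in WT and at 131 and 146 CPM in KO Th1 cultures (log2 fold change -0.39, adjusted p = 0.00841). Loss of the DOT1L protein was not measured here. KO against WT Th1 cultures called 6618 genes (50.6%), of which 3248 were higher (24.8% of those tested) and 3370 lower (25.8%). Of the 53 genes higher with SGC0946, 46 (86.8%) were also higher in the KO, which is 1.42% of the KO list. Il17a was lower there, and Mmp13, Mmp9, Col13a1, Epha2, Gfra1 and Bcam were called in neither direction. Of the 8 lower genes, 7 (87.5%, 0.208% of the KO list) were lower in the KO, and P2rx3 was not, at 32.5 and 30.3 CPM in WT and 33.4 and 33.7 CPM in KO cultures. The median log2 fold change of the 53 was 1.11 with the inhibitor and 1.54 in the KO, and that of the 8 was -0.70 and -1.73. Over 11374 genes with an average of at least 1 log2 CPM, Pearson's r between the inhibitor and KO effects was 0.30 and Spearman's rho 0.12. These points are genes of the same libraries and not independent.

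The size of the change differed between the inhibitor and the KO for 28 of the 61 genes (45.9%, test of the difference), against 30.7% of all tested genes (12.8% positive and 17.9% negative). Of these 28, 19 were higher with SGC0946 and had the larger log2 fold change in the KO. B4galnt4 reached 324 and 309 CPM in the KO and Tnfrsf8 667 and 696 CPM, several times their SGC0946 level. Ifitm3 was at 470 and 434 CPM, Col5a3 at 34.8 and 44.2 CPM, Mycn at 38.2 and 34.2 CPM and Uchl1 at 42.4 and 44.3 CPM in the KO. Among lower genes, Ephx1 was at 1.16 and 1.13 CPM, Cdh23 at 2.86 and 3.46 CPM and Lrig1 at 8.20 and 11 CPM in the KO, each well below both SGC0946 libraries. Prdm1, S100a11, Emp1, Prr5l, Camk2n1 and Stk39 had differences between the 2 effects with adjusted p of 0.217, 0.923, 0.745, 0.963, 0.960 and 0.987.

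**Figure D3:**
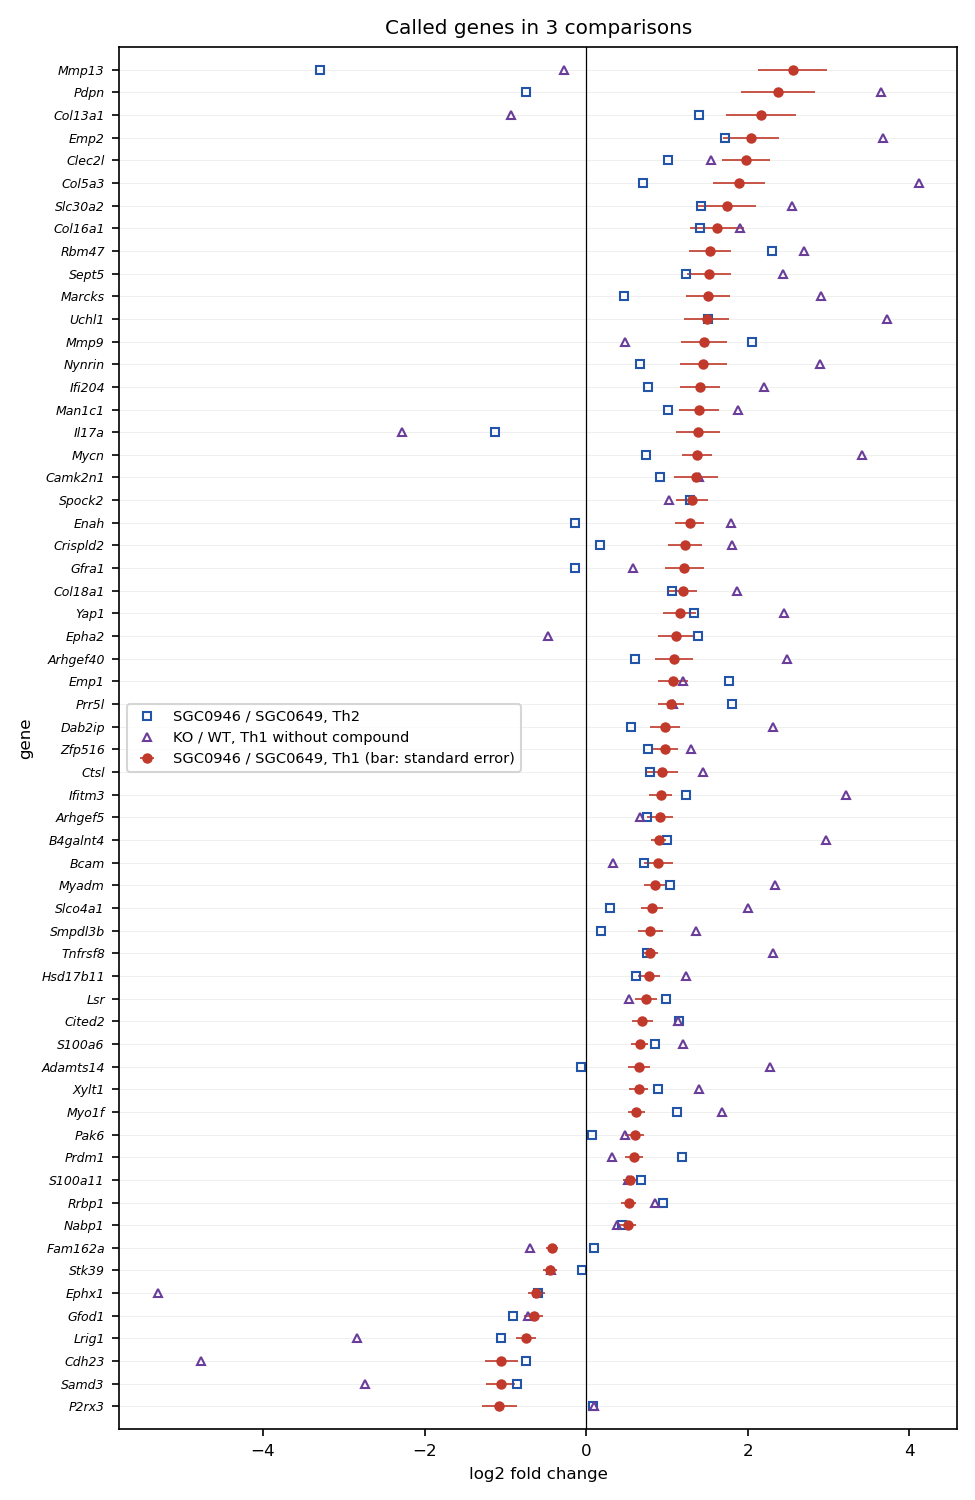
Called genes (1 of the 61 is not shown), ordered by their log2 fold change with SGC0946 over SGC0649 in Th1 cultures (red circles, bars are SE), with the same compounds in Th2 cultures (blue squares) and with KO over WT in Th1 cultures (purple triangles); the x axis is the log2 fold change. Most triangles lie further from 0 than the circles on the same side, and Il17a and Mmp13 have squares and triangles on the other side of 0.

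The response was also compared with that of Th2 cultures to the same compounds at the same dose and time. There 1040 genes (7.96%) were called, 712 higher with SGC0946 (5.45%) and 328 lower (2.51%). Of the 53 genes higher in Th1, 35 (66.0%, 4.92% of the Th2 list) were higher in Th2, and of the 8 lower genes, 4 (50.0%, 1.22%) were lower. When each culture was fitted on its own 4 libraries, 0% of the genes called in Th1 were called the same way in Th2. A fit that calls few genes in Th2 gives a low share whatever the effects. The number it called is not given here, so the 0% does not show that the responses are unlike. Across the 11374 genes Pearson's r between the Th1 and Th2 effects was 0.36 and Spearman's rho 0.35. The effect itself differed between the cultures for 68 genes (0.52%; 0.222% positive and 0.298% negative), and 4 of these are among the 61: Il17a, Enah, Mmp13 and Fam162a. Enah stood at 34.6 and 36.9 CPM in Th2 with SGC0649 and at 36.4 and 28.7 CPM with SGC0946 and these overlapped. Its effects differed by 1.42 ± 0.23 (adjusted p = 0.0134). Fam162a stood at 321 and 307 against 335 and 335 CPM in Th2, and its difference was -0.52 ± 0.11 (adjusted p = 0.0379). Mmp13 gave 8 and 4 reads in Th2 with SGC0649 and 1 and 0 with SGC0946.

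The control compound was compared with no compound in Th1 cultures, a comparison that shares the SGC0649 libraries with the main one. It called 2 genes, both higher (0.0153%), with 616 at an unadjusted p under 0.05. DESeq2 called 21. The 2 genes were Selenbp1, at 7.22 and 6.62 CPM without compound and 17 and 14.9 CPM with SGC0649, and Gapdh, at 12.6 and 15 against 39.4 and 42.0 CPM. Gapdh has near-identical copies in the genome and reads with several matches were not counted, so its value is uncertain. SGC0946 against no compound called 319 genes (2.44%), 249 higher (1.9%) and 70 lower (0.535%). For Selenbp1 and Gapdh the SGC0946 libraries lay at 11.8 and 11 and at 39.9 and 34.5 CPM, and neither was called between the compounds (adjusted p = 0.185 and 0.833). The median effect of SGC0649 against no compound was -0.02 for the 53 higher genes and -0.00 for the 8 lower ones, on the log2 scale.

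The called higher genes were low in Th1 cultures to begin with. Their median without compound was 10.2 CPM, or 2.0 CPM per kb of exon, against 27.7 CPM and 7.0 CPM per kb over all tested genes. The 8 lower genes had a median of 57.0 CPM, or 11.7 CPM per kb. Median exon length was 4.61 kb for the higher, 4.25 kb for the lower and 3.99 kb for all tested genes. The genes spanned a median of 23.7, 70.2 and 23.0 kb, and the window before the start had a median GC content of 62.0%, 62.8% and 59.6%.

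Other pathways were read from gene lists. Genes of DOT1L partner complexes had 0 of 17 called and a median of 0.02, and 26 histone methylation enzyme genes had a median of -0.04. All 21 mitosis genes had values below 0, with a median of -0.23 and a smallest adjusted p of 0.760. Values below 0 were also found for 20 of 22 DNA replication genes (median -0.17) and 20 of 21 glycolysis and hypoxia genes (median -0.07). Interferon-stimulated genes lay above 0 for 22 of 27, with a median of 0.19, and chemokine genes had a median of 0.55 over 12 with 5 higher and 3 lower at an unadjusted p under 0.05. Over all tested genes 6289 lay above 0 and 6648 below, and 6.37% were higher and 3.52% lower at that unadjusted p. Of 25 cytokine genes Il17a was called, and under the block Il21, Il22, Spp1 and Tnf were called as well. Of 20 integrin and adhesion genes Pdpn was called, and the block added Itga3. Among all tested genes 0.405% were called higher, and with the block 1.23% higher and 0.237% lower. The naive and memory list had no called gene among 21, with a median of -0.13, and Ccr7, a lymph node homing receptor, was called lower under the block (-0.42, adjusted p = 0.0417).

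**Figure D4:**
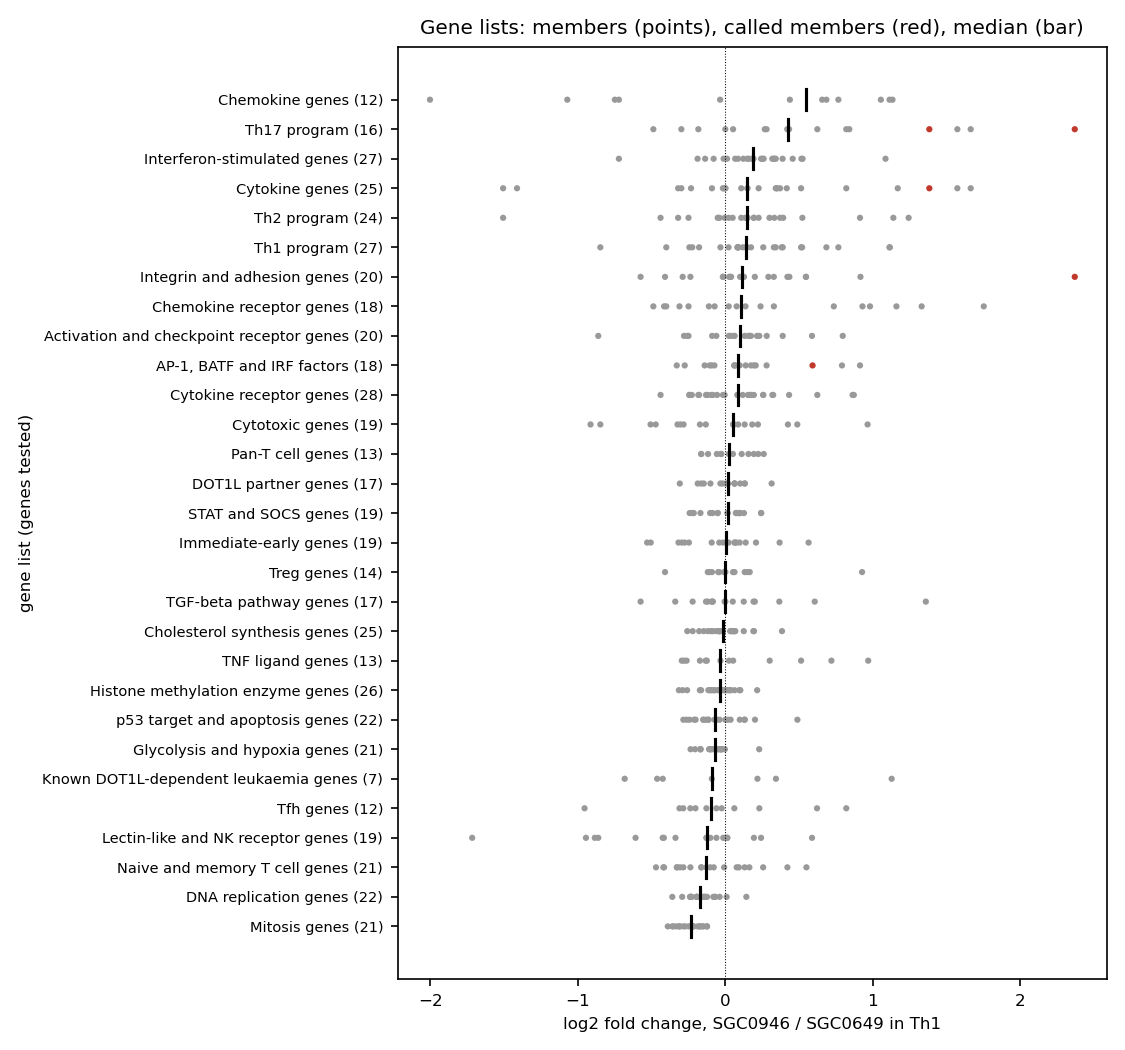
Log2 fold changes of SGC0946 over SGC0649 in Th1 cultures (x axis) for the members of 29 gene lists (y axis, with the number tested); grey points are genes, red points are called genes, black bars are list medians and the dotted line is the median of all tested genes. The 3 called genes in lists are Il17a, Pdpn and Prdm1, and the mitosis list lies wholly below 0.

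Marker sums of other cell types were read beside these results, since fewer cells of a type and less RNA per cell cannot be told apart in bulk RNA. The 6 Th17 markers summed to 120 and 105 CPM with SGC0649 and to 232 and 223 CPM with SGC0946. These 6 include Il17a and Pdpn, and their part in the Il17a result was not tested. Th1 markers summed to 2080 and 1981 against 2234 and 2329 CPM, and those of CD4 T cells to 2700 and 2634 against 3020 and 2703 CPM. The 14 myeloid and dendritic markers summed to 306 and 349 against 495 and 485 CPM, with Siglech at 0 in all 4 libraries. Of the 13 tested, 6 lay above 0 and 6 below, with a median of 0, and none was called. Ly6g was the one at an unadjusted p under 0.05 (log2 fold change 0.61, adjusted p = 0.431). The 5 NK cell markers summed to 32.4 and 37.6 against 20.3 and 22.6 CPM, and the 10 B cell markers to 20.1 and 7.68 against 11.8 and 8.11 CPM. For stromal cells, which express collagens and Pdpn, the sums were 135 and 135 against 124 and 113 CPM, with Col3a1 and Pdgfra at 0 in all 4 libraries. The 5 tested stromal markers ran from -0.20 (Pecam1) to 3.74 (Dcn) on the log2 scale. Of these, 2 lay above 0 and 2 below, and none was called.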

How the data were processed

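Raw read counts per gene were deposited by the authors, made with featureCounts 1.5.3 on the Ensembl release 84 GRCm38 annotation, per the file headers. The strand setting was 2, and reads with several matches were not counted. The aligner is not given in the sources used here. The log2 fold changes were computed here from these counts.

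Groups came from the labels. The headers number both SGC0946 libraries 1 where the titles give 1 and 2, so columns were matched by library number. Of 22048 protein-coding genes, 13072 passed edgeR's filterByExpr (minimum count 10, minimum total 15). TMM scaling (factors 0.878 to 1.083) and edgeR 4.0.16 quasi-likelihood fits over all 20 libraries (R 4.3.3) gave log2 fold changes and F statistics. SE was the absolute log2 fold change divided by the square root of F, and 95% intervals were built from this SE. Both therefore restate the p-value of the same test. Benjamini-Hochberg adjustment ran over all tested genes with a threshold of 0.05. The fit left 10 residual degrees of freedom, and library depth was 9704500 to 13025588 counts. Scripts were tested on simulated data. Alternatives were RLE scaling, DESeq2 1.42.0, limma 3.58.1 (voom), no filter, a table of all named genes, only the libraries of a contrast, the replicate block, leaving out each library, and, chosen after seeing the data, only the 8 Th1 libraries.

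Replicate numbers come from the titles. The deviations of same-numbered WT cultures correlated at r of 0.125 to 0.575 in all 15 pairs of groups (0.243 for the 2 compared here, 11374 genes). The main fit did not pair the libraries, and the numbers were used only in the replicate block, an alternative. For the SGC0946 libraries the pairing rests on the titles, since the headers give both the same number.

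Named were 8 preset genes, the 12 highest and, of up to 12 allowed, all 8 lowest called fold changes (average log2 CPM at least 1, no overlap, no provisional names). Each list added its called genes of smallest p, 4 at most. Mmp13, Enah, B4galnt4, Tnfrsf8, Mycn, Ifitm3, Emp1, Col13a1, Col18a1, uncalled list members and other genes were named after their values were seen. Values of some genes are not reported here. The members and lists were chosen with earlier results of these data known.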

Additional observations from a re-analysis of the deposited data

Results flagged for a closer look

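For 4 called genes the response to SGC0946 differed between Th1 and Th2 cultures by the test of the difference (edgeR, adjusted over all tested genes). On the log2 scale the Th1 effect minus the Th2 effect was 2.51 for Il17a, 1.42 for Enah, -0.52 for Fam162a and 5.86 for Mmp13. The Mmp13 value rests on 1 and 0 reads in the Th2 libraries with SGC0946 and depends on how the fit treats low counts.

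Outside the protein-coding class, 2 of 2866 genes tested were called (0.0698%). Miat, a long intergenic RNA gene, stood at 7.53 and 6.53 CPM with SGC0649 and at 22.3 and 18.6 CPM with SGC0946 (log2 fold change 1.55, adjusted p = 0.00143), and at 75.7 and 109 CPM in KO Th1 cultures. Gm13546, an antisense gene, stood at 21.2 and 22.0 CPM against 10.2 and 10.5 CPM (-1.06, adjusted p = 0.0245).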

How the results depend on the processing

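The 61 genes called for SGC0946 against SGC0649 in Th1 became 140 with DESeq2, 100 without a filter, 192 with the replicate block, 561 with only the 4 libraries of the contrast and 511 with only the 8 Th1 libraries, and 2 to 7 when 1 library was left out. The difference between the Th1 and Th2 effects, 68 genes, became 146 with DESeq2, 127 with the replicate block, 12 with only the libraries of the contrast and 9 to 276 with 1 library left out, the highest without the first Th2 SGC0649 library. The difference between the KO and inhibitor effects, 4012 genes, ranged from 2625 to 3491 with 1 library left out. For SGC0649 against no compound, 2 genes became 21 with DESeq2, 1 with voom, 4 without a filter, 190 with only the libraries of the contrast, 8 with the block, 52 with only the 8 Th1 libraries and 1 to 2 with 1 library left out. For SGC0946 against no compound, 319 genes became 2390, 682, 1613 and 11 to 104 in the last 4 of these settings. Leaving out a library leaves 1 sample in a group, which is then assumed to vary like the others. For the other changes the cause was not tested.

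No called value changed sign, which is no support, since the groups of the called genes did not overlap. Marcks lost its call with voom (adjusted p = 0.0622) and without a filter (0.0543), and Slc30a2 lost its call with voom (0.102). Ifng passed the threshold with only the libraries of the contrast (0.0194). The share of called genes with the same call in the KO, 86.9%, was 67.8% to 88.5% in settings that kept all libraries of a contrast. For Th2 the share of 63.9% was 0% with only the libraries of each contrast and 42.6% to 100% with 1 library left out. Such a share also depends on how many genes the fit of the other comparison calls. Among the genes named by the rule, the replicate block changed no call.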
